A study of Mus musculus with 6 samples.

Results

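The kinases and adaptors downstream of Fc receptors are 10 genes (Lyn, Syk, Fyn, Btk, Plcg2, Lat, Lat2, Inpp5d, Vav1 and Grb2), taken by name from the 55401 genes counted in each of 6 mouse RNA-seq libraries. All 10 names matched 1 Ensembl identifier each. The libraries were made with Smart-seq2, a full-length cDNA method for small inputs, from cells labelled as basophils of wild-type mice. They form sets A and B of 3 libraries each, and no label says that they came from separate animals, so p-values reflect the scatter among libraries, which may be technical. In the study, MC903, a vitamin D analogue, was put on both ears daily (2 nmol in 10 µL ethanol, first on day 0 and last on day 6) to induce a dermatitis, and control mice received ethanol alone. The labels do not say which set received MC903, so each difference is that of B relative to A. Sorted cells were alive, positive for CD45, CD49b and FcεRIα or surface IgE, and negative for lineage markers. Blood is the tissue on the library labels, whereas the design text names ear skin.

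When IgE or IgG on a cell is cross-linked by antigen, the Src family kinase Lyn phosphorylates the tyrosine motifs of the receptor chains, and the kinase Syk docks on them and becomes active. Syk and the Src family kinase Fyn then phosphorylate adaptors such as LAT and LAT2. Around LAT, Grb2, phospholipase C gamma, the exchange factor Vav1 and the Tec family kinase Btk gather, in part through other adaptors. The result is calcium release and degranulation, and the phosphatase SHIP-1, encoded by Inpp5d, restrains it. B cells, T cells, monocytes, neutrophils and platelets use many of the same proteins, so none of the 10 genes marks basophils.

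Deposited counts summed to 46137963 to 63956911 per library, and 3 counts corresponded to 0.0469 to 0.0650 CPM (counts scaled by the library total). The label of the cells was checked on 8 basophil markers, whose summed level was 39.7 to 385 CPM across A and 1449 to 3195 CPM across B. Mcpt8, a granule protease, was at 0.681 to 1.28 CPM across A and 478 to 1173 CPM across B, and Fcer1a, the IgE-binding chain, had 4, 0 and 0 counts in A. Prss34, Cpa3 and Cd200r3 were likewise under 1 CPM in all 3 A libraries, and their values in B lay above those without overlap. Other markers of the list were read out in A: Hdc, the enzyme that makes histamine, was at 62.2 and 267 CPM in A replicates 2 and 3, lower in A replicate 1, and at 359 to 685 CPM across B. Ms4a2 had counts in A replicate 2. Gata2, a transcription factor, had the higher mean in A (0.109, 45.6 and 116 CPM across A, and 42.8, 1.15 and 24.8 CPM across B). Markers of other blood cells were present in every library. The 8 monocyte and macrophage markers summed to 36185 to 43100 CPM across A and 25204 to 34302 CPM across B, and the 8 neutrophil markers to 2398 to 9710 and 12444 to 23020 CPM, with Ly6g at 0 throughout. The 8 B cell markers summed to 4661 to 6503 CPM across A and 5495 to 6675 CPM across B, the 8 T cell markers to 696 to 936 and 198 to 350 CPM with Cd4 at 0 throughout, the 8 NK cell markers to 992 to 2389 and 1026 to 1585 CPM, and the 8 platelet markers to 1054 to 1532 and 590 to 1001 CPM. Sums were 99.3 to 378 CPM across A and 92.3 to 172 CPM across B for dendritic cells (8 markers), 866 to 1622 and 450 to 1029 CPM for eosinophils (8 markers, Epx and Prg2 at 0 throughout), 0.151 to 117 and 0.135 to 78.0 CPM for mast cells (6 markers, Kit, Mrgprb2 and Mcpt4 at 0 throughout), and 270 to 630 and 109 to 179 CPM for erythroid cells (6 markers, Alas2 and Slc4a1 at 0 throughout). The part of any of these cells in the levels below was not tested. In bulk libraries, fewer cells of a type and less RNA per cell cannot be told apart. Low values were more frequent in each A library than in any B library: of the genes with a mean level in the range of the 10 genes, 28.3%, 21.6% and 15.2% were under 1 CPM in A replicates 1, 2 and 3, and 14.2%, 7.42% and 1.95% in those of B.

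The 10 genes together took 1034, 1420 and 1617 CPM in A replicates 1, 2 and 3, and 1491, 1047 and 1251 CPM across B. The sets therefore overlapped (mean 1357 ± 297 CPM for A, mean 1263 ± 222 CPM for B, SD, n = 3 each). Lyn was the member with the most counts in every library, at 21.4% to 37.7% of the sum.

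The Src family kinases Lyn and Fyn were the 2 members read out well above the floor in all 6 libraries with a modest spread. Lyn (ENSMUSG00000042228), which starts the cascade and in many cells also limits it, was at 389, 323 and 518 CPM across A and 319, 358 and 419 CPM across B. Its lowest and highest libraries differed by 1.63 times, and the sets overlapped. Fyn (ENSMUSG00000019843), which acts beside Lyn on the adaptor Gab2 in mouse mast cells, was at 269, 222 and 131 CPM across A and 158, 70.9 and 169 CPM across B. Its 2 highest values were both in A, yet A replicate 3 lay below B replicates 1 and 3. The coefficient of variation over the 6 libraries was 19.2% for Lyn and 40.8% for Fyn, and 60.0% to 111% for the other 8 genes.

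Syk (ENSMUSG00000021457), the kinase that binds the phosphorylated receptor, was at 59.2, 19.1 and 168 CPM across A and 0.201, 57.8 and 49.1 CPM across B. In 5 libraries it was clearly read out, while B replicate 1 held only 10 counts. Btk (ENSMUSG00000031264), the Tec family kinase of B cells and myeloid cells, was at 0, 61.8 and 0 CPM across A and 0.161, 49.3 and 62.3 CPM across B. It was therefore read out in 3 libraries, 1 of A and 2 of B, and at or close to 0 in the other 3. Were each deposited count an independent read, a count of 0 would allow up to 0.0544 CPM in A replicate 1 and 0.0650 CPM in A replicate 3. Amplified reads without molecular identifiers are not independent molecules, and library totals far exceed the read yield stated in the labels. The level in the cells may therefore be higher.

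Of the adaptors, Lat (ENSMUSG00000030742), a membrane scaffold of T cells, mast cells and platelets, was at 0, 175 and 43.9 CPM across A and 50.6, 52.7 and 61.5 CPM across B. Its B libraries lay close together (54.9 ± 5.81 CPM, SD, n = 3), and its A libraries held both its lowest and its highest value. Lat2 (ENSMUSG00000040751), the related scaffold known as NTAL or LAB in B cells and myeloid cells, was at 0.435, 173 and 112 CPM across A and 225, 40.1 and 103 CPM across B. Grb2 (ENSMUSG00000059923), which links phosphorylated scaffolds to the Ras exchange factor SOS, was at 0.871, 70.3 and 462 CPM across A and 210, 267 and 199 CPM across B. All 3 adaptors had their lowest value in A replicate 1, and in each the B values lay inside the range of A or overlapped it. Lat2 shares 952 of its 2621 exon bases with Rfc2, a replication factor gene on the opposite strand (GENCODE M21). Reads there cannot be told apart unless the library kept strand and the counting used it, and use of strand is not stated. Rfc2 was at 311 CPM in A replicate 1, its highest library, in which Lat2 was at 0.435 CPM.

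Plcg2 (ENSMUSG00000034330), the phospholipase that makes the calcium-releasing messenger IP3, was at 170, 65.4 and 19.9 CPM across A and 171, 13.6 and 94.3 CPM across B. High and low libraries were found in both sets, and the sets overlapped. Vav1 (ENSMUSG00000034116), an exchange factor for Rac in blood cells, was at 127, 225 and 78.0 CPM across A and 208, 39.6 and 78.8 CPM across B. It was read out in all 6 libraries, and the sets overlapped. Inpp5d (ENSMUSG00000026288), the inhibitory phosphatase SHIP-1, was at 17.9, 84.5 and 84.3 CPM across A and 149, 98.7 and 16.0 CPM across B. Its 2 lowest libraries, A replicate 1 and B replicate 3, stood one in each set.

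**Figure D1:**
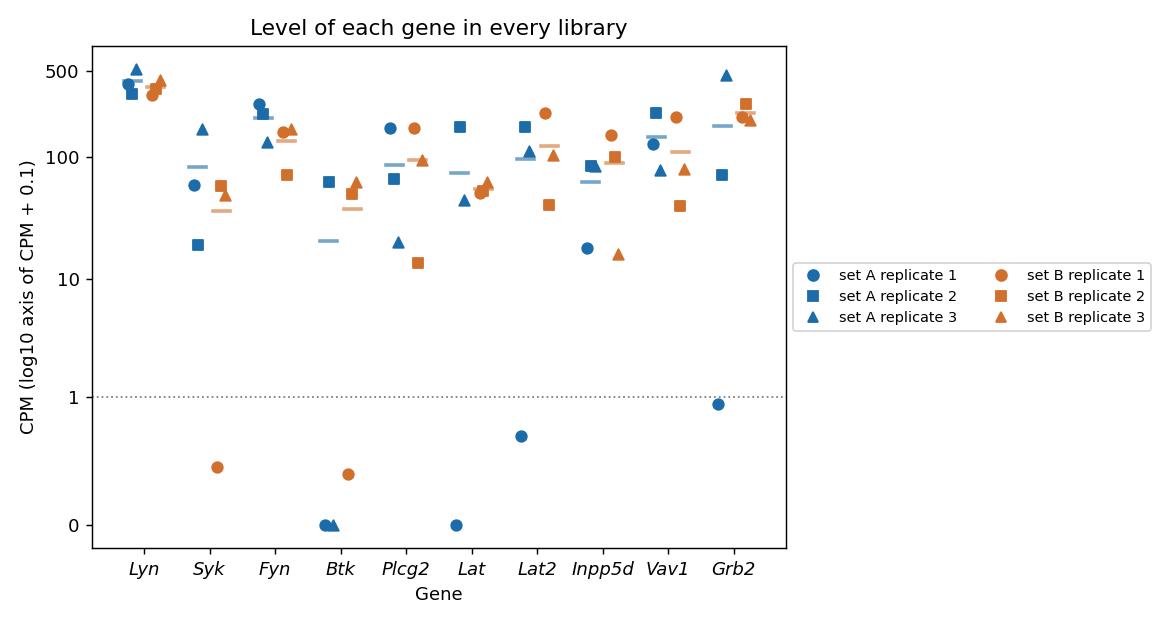
CPM of each of the 10 genes (x axis) in the 6 libraries (y axis, log10 of CPM + 0.1), with set A in blue, set B in orange, a marker shape for each replicate number, bars at the set means and a dotted line at 1 CPM. Lyn lies between 319 and 518 CPM in all 6 libraries, and 7 values fall under 1 CPM, 4 of them in A replicate 1.

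In all, 7 of the 60 values lay under 1 CPM (11.7%), spread over Btk (3 libraries), Syk, Lat, Lat2 and Grb2 (1 each). Over the 4351 genes whose mean level fell in the range of the 10 genes (28.9 to 388 CPM), 14.8% of values did. A replicate 1 held 4 of the 7 low values (Btk, Lat, Lat2 and Grb2), B replicate 1 held 2 (Syk and Btk) and A replicate 3 held 1 (Btk). A replicate 2 and B replicates 2 and 3 held 0. Over the 4351 genes the shares under 1 CPM were highest in A replicates 1 and 2 (28.3% and 21.6%). With 10 genes a library, the low values are too few to tell whether they follow these shares. The part of library quality in the zeros of single genes was not tested.

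Levels of different genes were set side by side per kilobase of exon (union of GENCODE M21 exons, an annotation that may differ from the one the counts were made with). Lyn had the highest median over the 6 libraries, at 91.7 CPM per kilobase (78.3 to 127). Grb2 followed at 70.1 CPM per kilobase (0.299 to 159), then Lat2 at 40.8 (0.166 to 85.8), Fyn at 37.5 (16.3 to 61.7) and Vav1 at 27.9 (10.7 to 61.1). Lower medians were those of Lat at 18.7 CPM per kilobase (0 to 63.2), Plcg2 at 18.6 (3.18 to 39.9), Inpp5d at 11.1 (2.10 to 19.6), Btk at 7.86 (0 to 19.8) and Syk at 5.71 (0.0215 to 17.9). Every pair of neighbours in this order overlapped in range. Lyn lay above Fyn without overlap, whereas Grb2 crossed the ranges of all the others.

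The comparison of B with A asks whether the signalling machinery differed between the sets. By edgeR's quasi-likelihood test with Benjamini-Hochberg adjustment over the 9196 genes tested, 0 of the 10 members passed an adjusted p of 0.05, and the 10 adjusted p-values were all 1.00 after rounding. Over all genes tested 0.0217% passed (2 genes). At an unadjusted p under 0.05 edgeR counted 0 of the 10 members, beside 6.36% of all genes tested. DESeq2 called 0 members (7.16% of the genes to which it gave an adjusted p) and limma-voom called 0 (2.20% of genes). None of the 10 genes had sets without overlap, against 14.1% of all genes tested.

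The log2 fold change of B over A was above 0 for 4 members and below 0 for 6, with a median of -0.14, beside a median of -0.06 over all genes tested, of which 48.0% were above 0. The narrowest interval was that of Lyn, at -0.26 on the log2 scale (SE 0.28, 95% interval -0.93 to 0.41). Fyn followed at -0.76 (SE 0.56, interval -2.10 to 0.59) and Vav1 at -0.50 (SE 0.80, interval -2.43 to 1.42). All 3 intervals contained 0.

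Intervals of the other 7 genes were wider. Inpp5d was at 0.42 on the log2 scale (interval -2.31 to 3.15) and Plcg2 at -0.03 (-2.94 to 2.88). Grb2 was at 0.32 (-3.33 to 3.98), Lat2 at 0.32 (-3.51 to 4.14) and Syk at -1.26 (-5.62 to 3.10). Lat was at -0.47 (-5.81 to 4.87) and Btk, with counts of 0 in A, at 0.78 (-7.36 to 8.93). A large difference in either direction would therefore not have been detectable for these genes, given the spread between their libraries. Without A replicate 1, the library with 4 members under 1 CPM, again 0 members passed by edgeR, 3 fitted values lay above 0 and 7 below, and the median was -0.26. Without that library Lat2 and Grb2 turned from above to below 0 (-0.27 and -0.26) and Plcg2 from below to above 0 (1.07). Plcg2 was also above 0 with library size alone as the scaling (0.13).

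**Figure D2:**
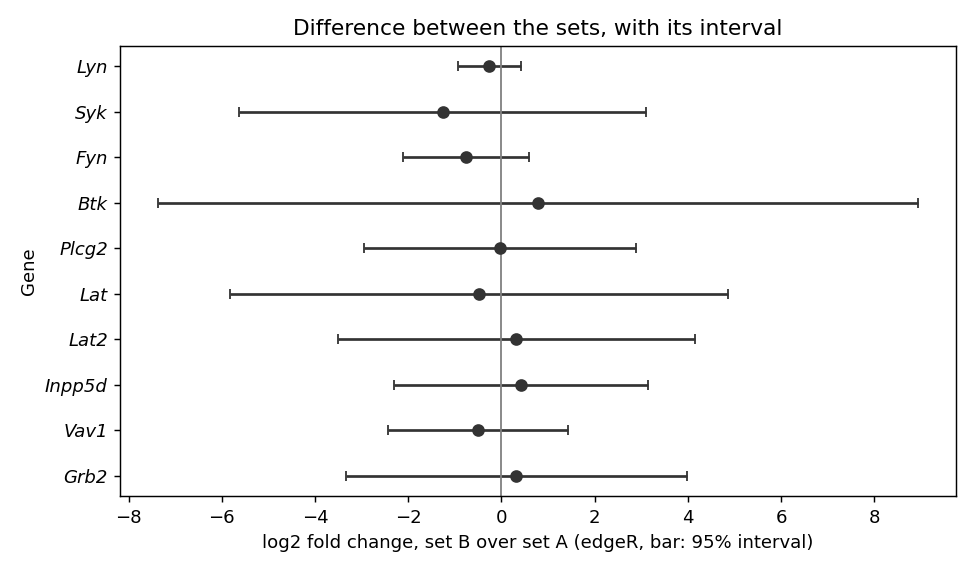
Log2 fold change of set B over set A for each of the 10 genes (x axis, edgeR), with bars for the 95% interval and a line at 0. All 10 intervals contain 0, from the narrow one of Lyn (-0.93 to 0.41) to the widest, that of Btk (-7.36 to 8.93).

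For 6 groups of paralogues the libraries were compared by the share of their summed counts that fell to the member, a ratio within a library that scaling does not touch. Lyn took 59.1%, 59.2% and 79.9% of Lyn plus Fyn counts in A and 66.9%, 83.5% and 71.2% in B, so Lyn had more counts than Fyn in 6 of 6 libraries. The difference of 7.77 percentage points (66.1% ± 11.9 in A, 73.9% ± 8.59 in B, SD, n = 3 each) was within the spread (2-sided exact permutation p = 0.5). An exact test of 3 libraries against 3 cannot go below p = 0.1, and after adjustment over the 6 groups each p was 1.

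Vav1, the form of blood cells, held the majority over Vav2 and Vav3 together in 6 of 6 libraries. It took 95.8%, 70.9% and 64.0% of the group in A and 94.7%, 54.8% and 53.9% in B (exact permutation p = 0.5). Plcg2 was the sole phospholipase C gamma with counts in 5 libraries. In A replicate 1 Plcg1, the form that T cells rely on, had 3244 counts and Plcg2 took 74.3% (95% exact binomial interval 73.5% to 75.1%). Lat2 took 100%, 49.8% and 71.8% of Lat plus Lat2 counts in A and 81.6%, 43.2% and 62.5% in B (exact permutation p = 0.6), and neither scaffold led throughout. The 100% of A replicate 1 rests on 24 counts (exact binomial interval 85.8% to 100%), and the difference of -11.4 percentage points was 1.67 without that library. Pooling the counts of each set turned it to 11.8, with B the higher.

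The other 2 groups switched between libraries. Syk had all but at most 5 counts of Syk plus Zap70 in A replicates 1 and 3 and in B replicate 2. Zap70, the related kinase of T cells and NK cells, had 4844 counts in A replicate 2, where Syk took 17.2% (exact binomial interval 16.3% to 18.2%), and Syk took 80.4% in B replicate 3. B replicate 1 held 14 counts of the pair, so its 71.4% carries an interval of 41.9% to 91.6%. Between the sets the share differed by 11.6 percentage points (exact permutation p = 0.9), and by -16.0 without A replicate 2.

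Inpp5d took 99.6% to 100% over Inppl1, the broadly expressed SHIP-2, in 4 libraries. In A replicate 1 its share was 23.2% (exact binomial interval 21.9% to 24.4%) and in B replicate 2 it was 75.6%. The sets differed by 17.4 percentage points (exact permutation p = 0.9), and by -8.23 without A replicate 1. For Plcg2 and Vav1 the differences were 8.56 (exact permutation p = 1) and -9.09 percentage points, and 0 and 0.348 without A replicate 1. Intervals of shares treat each deposited count as an independent trial. Reads amplified without molecular identifiers are not independent molecules, and library totals far exceed the read yield stated in the labels. The intervals may therefore be too narrow even for counting error, and they do not cover the spread between libraries.

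**Figure D3:**
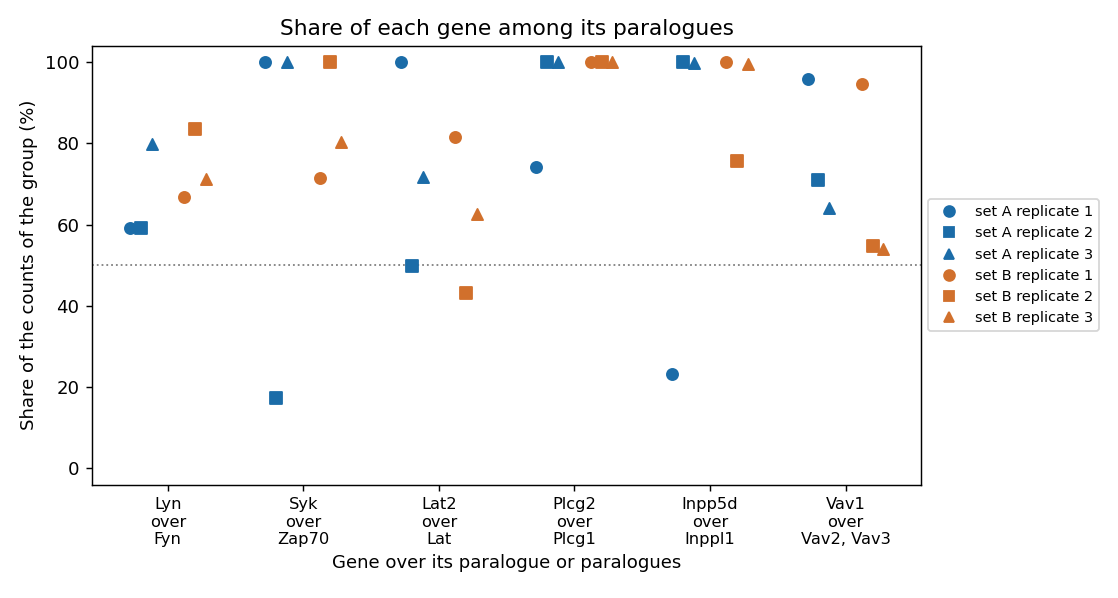
Share of the counts of a paralogue group that fell to the member (y axis, percent) in each library, for the 6 groups on the x axis, with set A in blue, set B in orange and a dotted line at equal shares. Lyn and Vav1 lie above the line in 6 of 6 libraries, while Syk falls to 17.2% in A replicate 2 and Inpp5d to 23.2% in A replicate 1.

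Upstream of the 10 genes, the receptor chains split into those that were read out evenly and those that were not. Fcer1g, the signalling chain shared by IgE and activating IgG receptors, was at 5477, 5531 and 5327 CPM across A and 4332, 4766 and 7247 CPM across B. Fcgr4 and Fcgr3, activating IgG receptors of myeloid cells, were at 615 to 1119 and 650 to 931 CPM across A and at 991 to 1224 and 641 to 1081 CPM across B. These 3 chains were well above the floor in all 6 libraries. Fcgr2b, the inhibitory IgG receptor that recruits SHIP-1, ranged from 45.8 to 544 CPM across A and from 135 to 567 CPM across B. Fcgr1, the high-affinity IgG receptor, which also signals through the Fcer1g chain, was at 0.218, 41.5 and 0.650 CPM across A and 39.4, 43.9 and 24.8 CPM across B. Ms4a2, which encodes the beta chain of the IgE receptor, was at 0, 11.9 and 0 CPM across A and 19.1, 20.7 and 1.02 CPM across B.

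Fcer1a was the one receptor chain whose sets did not overlap, at 0.0726, 0 and 0 CPM across A and 216, 94.4 and 41.9 CPM across B. Its adjusted p was 0.508 by edgeR, 2.22e-11 by DESeq2 and 0.0374 by limma-voom, while all 10 downstream genes were called by none of the 3 tools. Whether the difference of Fcer1a itself exceeds that of any downstream gene was not tested.

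**Figure D4:**
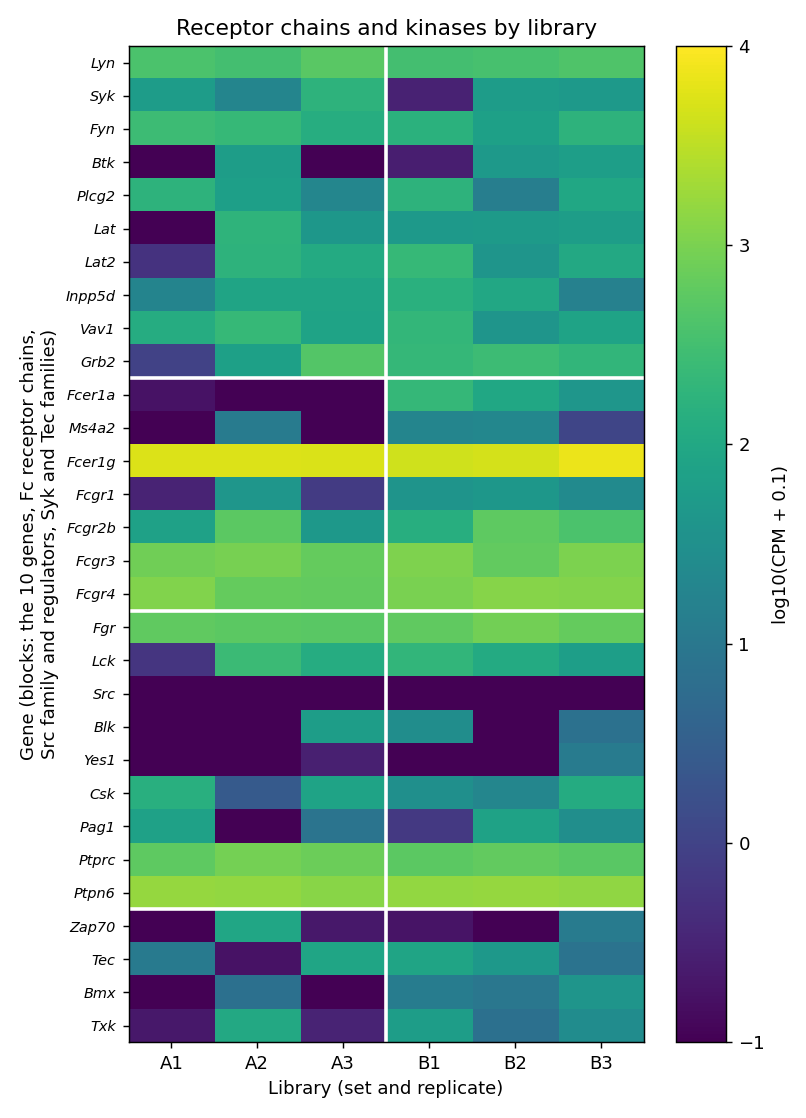
Level of the 10 genes, 7 Fc receptor chains, 9 Src family kinases and their regulators and 4 Syk and Tec family kinases (rows, in blocks) in the 6 libraries (columns), as log10 of CPM + 0.1 in colour. Fcer1g, Fcgr3, Fcgr4, Fgr, Ptprc, Ptpn6 and Lyn are bright in all 6 columns, Fcer1a is dark in the 3 A columns, and Src is dark throughout.

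Of 83 further entries listed for the pathway, 82 matched a gene and 68 could be tested. By edgeR 0 were higher and 0 lower in B, and 2 reached an unadjusted p under 0.05. The median log2 fold change was -0.03, with 33 values above 0 and 35 below. That balance moved with the method, as it did over all genes tested: by limma-voom the pathway median was 0.81 (50 above, 18 below) beside 0.87 over all genes, and with a replicate block it was 0.45 (45 above, 23 below) beside 0.48. The sets did not overlap for 9 of the 68 genes (13.2%, against the 14.1% of all genes tested), 7 of them higher in B and 2 higher in A. DESeq2 called Fcer1a higher and Ubash3a lower, and limma-voom called Fcer1a alone. The genes with the smallest p by edgeR after Fcer1a were Ubash3a, Ptprc and Prkcd. Ubash3a, a negative regulator in T cells, was at 0.0363, 124 and 36.4 CPM across A and 0.141, 0.0676 and 0.203 CPM across B (adjusted p = 0.601 by edgeR and 1.32e-04 by DESeq2). Its high values were those of A replicates 2 and 3 alone. Ptprc, the phosphatase CD45 that activates Src family kinases and a marker of the gate, was at 571, 905 and 743 CPM across A and 561, 625 and 532 CPM across B (log2 -0.46, SE 0.22, adjusted p = 0.944 by edgeR). Prkcd, a protein kinase C isoform that acts below phospholipase C, was at 305, 302 and 591 CPM across A and 178, 345 and 214 CPM across B (log2 -0.79, SE 0.39, adjusted p = 1.00 by edgeR).

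Among other Src family kinases, Fgr, a form of myeloid cells, is named here after its values were seen. It was at 589, 547 and 537 CPM across A and 607, 864 and 663 CPM across B, so its sets did not overlap, and it did not pass by edgeR (adjusted p = 1.00). Per kilobase of exon its range (139 to 224 CPM per kilobase, median 155) lay above that of Lyn (78.3 to 127). Src itself had 0 counts in all 6 libraries.

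Genes whose pattern over the 6 libraries was closest to that of a member were found by the root mean square difference of centred log2(CPM + 1), among 1793 other genes with a mean of at least 100 CPM. For Lyn, the member with the highest mean CPM, these were the immediate early gene Nr4a1 (difference 0.0529 on the log2 scale) and Psap, which encodes a lysosomal protein precursor (0.0862). As many as 518 of the 1793 genes lay within 0.5 of Lyn. For Syk, the member with the largest absolute fold change by edgeR (Btk was larger by limma-voom and with a replicate block), they were Arf4, a GTPase of vesicle transport (0.764), and Snx17, a sorting nexin (0.771), with 0 of the 1793 genes within 0.5. The closest genes were picked from many candidates over 6 libraries that share depth and set.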

How the data were processed

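The authors deposited raw counts per Ensembl gene, 1 column per library, with no pooling. Per the submitters' processing notes, cutadapt 1.9, HISAT2 2.2.1 and DESeq2 were used, with no role given. No source used here gives the counting program, genome build, annotation or use of strand, and coordinates are therefore left out. Totals far exceed the read yield stated in the labels, and the number of fragments behind them is not known. Symbols matched 55141 of 55401 identifiers.

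CPM is the count scaled by the library total. The main test was edgeR 4.0.16 in R 4.3.3 (filterByExpr, TMM, glmQLFit with robust=TRUE, glmQLFTest; set B against set A, no covariate), adjusted over all 9196 genes that passed the filter. All 10 members passed it. SE is the absolute log2 fold change over the square root of F, and the interval uses the test's degrees of freedom. Alternatives were RLE scaling, library size as the only scaling, testing without a filter or with a stricter one (a mean of 10 CPM or more, with no library of 1 set under 10 counts), DESeq2 1.42.0, limma-voom 3.58.1 with quality weights, robust=FALSE, a replicate block and each library left out. The fits were also run on simulated negative binomial counts, and the outcome is not reported here.

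Of 50-base stretches in GENCODE M21 (GRCm38) transcripts, 31.9% of those of Lat2, 18.3% of Lyn, 7.54% of Grb2 and under 1% of the other 7 genes also occur in another gene. Those sharing most with Lyn and Grb2, Gm11787 and Gm12791, were under 2 CPM in every library. Since the counting program is not known, these low counts do not show how reads in shared stretches were counted. Members and lists were chosen with earlier results of these data known. The genes named are the members, their paralogues, the receptor chains, the 4 pathway genes with the smallest p and the genes closest in pattern, except where the text says otherwise. Some genes of the lists, and 1 comparison of paralogues, are not reported here.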

Additional observations from a re-analysis of the deposited data

How the results depend on the processing

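Members past the threshold numbered 0 in every alternative tried. Over all genes tested, 2 passed by edgeR in the main fit, with RLE scaling, library size alone, no filter or robust=FALSE. With the stricter filter 3 passed, and 595 passed by DESeq2, 202 by limma-voom and 0 with a replicate block. When single libraries were left out, 0 to 1 passed. Of the pathway genes, 0 passed by edgeR, 2 by DESeq2 and 1 by limma-voom. The replicate numbers share no stated origin, and correlations of the deviations of same-numbered libraries were 0.028, -0.024 and 0.026. With the replicate block the log2 fold change of Lat was 1.17. Lat was 3.07 and Inpp5d -0.37 by limma-voom, and Plcg2 0.13 with library size alone. Without a change of sign, Btk was 6.95 by limma-voom and 6.09 with the block, Grb2 2.31 and 2.18, and Lat2 1.5 and 0.62. The median of all genes was 0.87 by limma-voom and 0.48 with the block, and that of the members -0.18 and 0.02. Leaving out single libraries moved Plcg2 from -0.81 to 1.07, Lat from -1.08 to 1.33, Lat2 from -0.48 to 1.15, Inpp5d from -0.23 to 0.95 and Grb2 from -0.26 to 2.58. Lyn (-0.40 to -0.12), Fyn (-1.03 to -0.40), Syk (-1.74 to -0.32) and Vav1 (-1.40 to -0.02) kept their sign. Without A replicate 2, Btk had 0 counts in the remaining A libraries and no fold is given. In that fit 1 of the 10 members had an unadjusted p under 0.05 by edgeR, beside 781 of the 11060 genes tested. The stricter filter left Btk untested. Differences in share, in percentage points, ran from 2.97 to 14.7 for Lyn, -16.0 to 25.4 for Syk, -23.4 to 1.67 for Lat2, 0 to 12.8 for Plcg2, -8.23 to 30.2 for Inpp5d and -22.5 to 0.348 for Vav1, and that of Lat2 was 11.8 with pooled counts. The cause of these changes was not tested. RLE scaling moved the median of all genes from -0.06 to -0.16 and that of the members from -0.14 to -0.24.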

Other observations

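Several further components of the cascade, named here after their values were seen, were read out in all 6 libraries. Rac2, the blood cell GTPase that Vav1 acts on, was at 950 to 1796 CPM across A and 1506 to 1923 CPM across B. Ptpn6, the inhibitory phosphatase SHP-1, was at 1268 to 1586 CPM across A and 1505 to 1617 CPM across B. Lcp2, the adaptor SLP-76 that bridges LAT to Vav1, was at 449 to 511 CPM across A and 409 to 569 CPM across B. Dok3, an inhibitory adaptor of B cells and myeloid cells, was at 193 to 550 CPM across A and 360 to 438 CPM across B. The sets overlapped for each of these 4 genes. The sets did not overlap for 9 of the 68 pathway genes tested (13.2%, beside 14.1% of all genes tested). Of these 9, the 8 other than Fcer1a had an adjusted p of 1.00 by edgeR after rounding. Values under 1 CPM were more frequent in the A libraries, and their part in the differences that follow was not tested. Shc1, an adaptor, was at 0.145, 0 and 4.07 CPM across A and 56.5, 64.4 and 30.3 CPM across B. Mapk3, the kinase ERK1, was at 0.0907, 5.58 and 8.02 CPM across A and 54.2, 59.2 and 35.9 CPM across B. Itpr2, a calcium release channel, was at 0.145, 3.22 and 0 CPM across A and 21.8, 39.7 and 46.2 CPM across B. The GTPase Hras was at 0, 0 and 28.6 CPM across A and 44.8, 51.3 and 55.8 CPM across B. Bmx, a Tec family kinase, was at 0, 6.81 and 0 CPM across A and 12.3, 9.56 and 41.2 CPM across B. Dok2, an inhibitory adaptor, and Pik3cd, a catalytic subunit of phosphoinositide 3-kinase, had higher values in A. Dok2 was at 121, 154 and 29.5 CPM across A and 0.0603, 27.7 and 22.5 CPM across B, so A replicate 3 lay only just above B. Pik3cd was at 116, 67.8 and 112 CPM across A and 45.8, 51.1 and 17.9 CPM across B.

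Kinases of T cells, likewise named after their values were seen, were high in A replicate 2, at 254 CPM for Lck, 91.6 CPM for Zap70 and 105 CPM for Txk. Lck was at 0.490 CPM in A replicate 1 and at 62.7 to 193 CPM in the other 4 libraries. The 8 T cell markers summed to 809, 936 and 696 CPM across A and 350, 198 and 219 CPM across B, so all 3 A libraries lay above those of B. The part of T cells in these values was not tested.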
